A study of Mus musculus with 11 samples.

Results

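LDHA-deficient (KO) natural killer (NK) cells were compared with wild-type (WT) ones under the title day D2. The comparison rests on 6 of the series' 11 RNA-seq libraries, KO D2 replicates 1 to 3 and WT D2 replicates 1 to 3, which were chosen by their titles. All 6 come from spleens of mouse cytomegalovirus (MCMV) infected mixed bone marrow chimeras on a C57BL/6 background, in which KO cells carry CD45.2 and WT cells CD45.1, and the label gives day 2 after infection. The sort kept TCRb- CD3e- NK1.1+ DX5+ Ly49H+ cells. The other 5 libraries are titled D0 (3 KO, 2 WT), carry the same day 2 label and enter the fit and 1 contrast of differences. The genotype label of the WT libraries names both genotypes, so the title decided. What drives the deletion and which part of the gene it removes are not given in the sources used here, and the age of the mice is not stated either. Each sample is described as an individual mouse, and whether a KO and a WT sample with the same number share a host is not stated.

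Ldha encodes a subunit of lactate dehydrogenase, which turns pyruvate into lactate and regenerates NAD+ for glycolysis. Ly49H is an activating receptor through which mouse NK cells recognise MCMV-infected cells, and Ly49H+ cells divide and accumulate during that infection. Dividing lymphocytes raise glycolysis, amino acid uptake and the DNA replication programme, while p53 is a transcription factor that answers stress by inducing inhibitors of the cell cycle, death receptors and its own negative regulators. Because genotype and the CD45 allele go together in these chimeras, genes linked to Ptprc (which encodes CD45, on chromosome 1) can differ between the arms by strain, and genotype and strain cannot be told apart there. In bulk RNA, fewer cells of a type and less RNA per cell cannot be told apart either.

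Total counts ran from 21902080 to 24371249 in KO D2 and from 23361983 to 27702679 in WT D2, so 3 counts, the floor used here, correspond to between 0.108 and 0.137 CPM (counts per 1000000 of a library's total). The sort markers were present in every library. Klra8, which encodes Ly49H, had 424, 431 and 447 CPM in KO and 378, 366 and 392 in WT (log2 fold change 0.14, SE 0.28, edgeR adjusted p = 0.83). The summed level of 11 NK cell markers ran from 39083 to 48133 CPM in KO and from 38135 to 43407 in WT. Most of it was the granzyme gene Gzmb, which was not called. Of the 11 markers 3 (Ncr1, Tbx21 and Eomes) were called lower in KO. Markers of 9 other cell types were low: 8 T cell genes summed to between 14.3 and 18.9 CPM in KO and between 13.2 and 27.3 in WT, and 7 neutrophil genes to between 8.49 and 10.9 in KO and between 7.87 and 11.1 in WT. Dendritic cell genes (253 to 311 CPM in KO, 194 to 206 in WT) were carried by Itgax, also an NK cell gene and the 1 marker of another cell type called higher, B cell genes (83.7 to 104 and 65.9 to 79.8) by Cd74 with Pax5 at 0, and stromal genes (162 to 189 and 112 to 155) by Pecam1 with Col3a1 and Cdh5 at 0. Monocyte genes (27.1 to 34.7 and 24.2 to 33.3), erythroid genes (59.2 to 188 and 34 to 275) and ILC1 genes (43.1 to 50.9 and 38.3 to 50.9) overlapped between the arms, and platelet genes ran from 2.82 to 4.8 CPM in KO and from 2.01 to 2.67 in WT. The part of these markers in the results was not tested.

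Ldha itself (Entrez 16828, chromosome 7, 46842274 to 46855627, mm10) had 115, 113 and 101 CPM in the KO libraries and 3101, 2753 and 2856 CPM in the WT libraries. Every KO library thus lay far below every WT library, 26.5-fold in the fit (log2 fold change -4.73, SE 0.13, edgeR adjusted p = 4.1e-10). No other lactate dehydrogenase gene stood beside it, since Ldhb, Ldhc, Ldhd and Ldhal6b were all under the filter on low counts.

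Across the transcriptome far more genes were lower than higher in KO cells. Of 13711 genes tested, 221 (1.61%) were called higher and 1986 (14.5%) lower at an edgeR adjusted p under 0.05. Without regard to the test, every KO library lay above every WT library in 12.4% of genes and below in 21.3%. With the replicate number as a block the counts were 900 higher (6.56%) and 2544 lower (18.6%), and with DESeq2 697 higher and 1958 lower. The difference between the genotypes at D2 minus that at D0 was called for 801 genes (5.84%), 17 higher (0.124%) and 784 lower (5.72%). These 2 counts rested on single libraries: they were 4 and 115 without KO D2 replicate 2, and 32 and 1404 without WT D2 replicate 1. Both were lower still without WT D0 replicate 2, a fit that leaves WT D0 without a spread of its own. The 221 genes called higher at D2 also rested on single libraries. They were 91 with KO D2 replicate 1 left out and 119 with KO D2 replicate 3. With WT D2 replicate 2 left out they were 108, and with WT D2 replicate 3 left out 106.

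Most genes that fell had a GC-rich stretch in their transcripts. For each gene the highest GC content of any 100-base window of its transcripts was taken from the mm10 annotation (peak GC). Among 4572 genes with a peak GC of at least 75%, 1638 (35.8%) fell and 21 (0.459%) rose, with a median log2 fold change of -0.43. Among 8245 genes under 75%, 316 (3.83%) fell and 188 (2.28%) rose, with a median of 0.09. Taken by bins, the share of genes called lower was 0.571% under a peak GC of 55%, 2.34% from 65 to 70%, 7.3% from 70 to 75%, 36.5% from 75 to 80% and 44.6% from 80 to 85%. Above that the relation turned: 16.6% fell from 85 to 90% and 10% at 90% and over (10 of 100 genes), with medians of -0.21 and -0.05 against -0.69 in the 80 to 85% bin. Mean GC over the whole transcript separated the genes less, with 8.2% lower under 40% and 16.5% from 55 to 60%, and reached 32.4% at 60% and over. At D0 the GC-rich genes had a median log2 fold change of 0.01 between the genotypes.

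Shorter GC-rich transcripts were called lower more often, 53.6% of those under 1000 bases against 21.6% of those of 5000 bases or more. To place the window, 1 coding transcript per gene was used, by which 5125 genes were GC-rich. The window lay before the coding part in 3410 of them, of which 29.7% fell, in the coding part in 1675, of which 42.4% fell, and after it in 40, of which 12.5% fell. By the number of CG dinucleotides in the window, 17.1% fell with 5 to 9, 39.9% with 15 to 19 and 19.7% with 20 or more.

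Windows of the coding part show what is counted here, with CG dinucleotides in capitals. Dut and Cdt1 fell and have a window over the threshold, while Psrc1 rose and has none. They are given in coding direction from GENCODE transcripts on mm10, at chr2:125247295-125247394 (Dut, plus strand), chr8:122568149-122568248 (Cdt1, plus strand) and chr3:108385138-108385237 (Psrc1, plus strand).
Dut: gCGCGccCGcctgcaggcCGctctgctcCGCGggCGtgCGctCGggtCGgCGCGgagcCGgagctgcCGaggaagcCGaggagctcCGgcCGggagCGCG
Cdt1: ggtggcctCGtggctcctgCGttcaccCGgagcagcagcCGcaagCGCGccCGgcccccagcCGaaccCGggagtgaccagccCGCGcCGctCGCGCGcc
Psrc1: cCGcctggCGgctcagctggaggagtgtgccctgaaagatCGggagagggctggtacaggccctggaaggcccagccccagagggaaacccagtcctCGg
The windows hold 82%, 79% and 68% G and C and 19, 15 and 4 CG dinucleotides. Dut, whose enzyme keeps uracil out of DNA, had 41.1, 39.2 and 51.5 CPM in KO and 148, 160 and 182 in WT. Cdt1, which licenses replication origins, had 30.4, 30 and 39.6 CPM in KO and 71.6, 104 and 102 in WT. Both groups were thus apart for each gene, with log2 fold changes of -1.89 (SE 0.15, edgeR adjusted p = 3.6e-05) and -1.47 (SE 0.23, adjusted p = 7.8e-04).

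The libraries differed in the level of GC-rich genes within each genotype as well. Relative to the mean of the 6 D2 libraries, the median log2 level of genes with a peak GC of at least 75% was -0.24, -0.17 and -0.19 in KO replicates 1 to 3 and 0.07, 0.30 and 0.22 in WT replicates 1 to 3. All KO libraries lay below all WT libraries, and WT replicate 1 lay nearest to KO. The 5 D0 libraries of both genotypes lay between 0.25 and 0.36. Without WT replicate 1, 1810 GC-rich genes were called lower and 24 higher. With a smooth GC term estimated for each library as an offset, 812 GC-rich genes were called lower and 542 higher, with a median of 0.06. Over all genes 710 were higher (5.18%) and 1170 lower (8.53%). The term is fitted to these same libraries and shifts all genes of the same peak GC alike. It removes any GC-dependent difference between the genotypes, whatever its source, so a median near 0 is built in. A call lost or gained with the offset is therefore no test of that source. In a fit of only the genes under 75%, chosen after the data were examined, 69 were higher (0.836%) and 286 lower (3.46%), or 407 (4.93%) and 539 (6.53%) with the replicate block. Whether the GC relation arises in the cells or in library making was not tested, so each gene group is also given by peak GC.

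**Figure D1:**
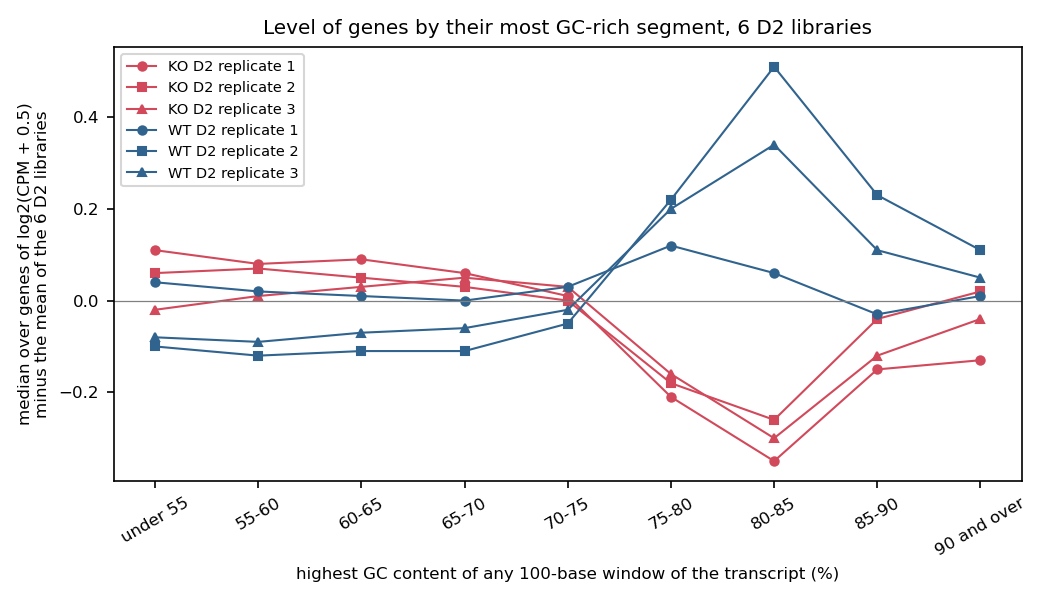
Median log2(CPM + 0.5) of genes in 9 bins of peak GC, as the difference from the mean of the 6 D2 libraries; red lines are KO and blue lines WT, with 1 line per library. From 75% to 90% the KO lines run below the WT lines, with WT replicate 1 between the other WT libraries and the KO libraries. The gap narrows above 85%, and at 90% and over KO replicate 2 (0.02) lies just above WT replicate 1 (0.01).

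Some of the largest changes lay outside GC-rich genes. Among genes that averaged 5 CPM or more, the largest rises by log2 fold change included the p53 targets Psrc1 and Dglucy and the class Ib genes H2-Q6 and H2-Q7, and the complement regulator gene Cd55. Txnip, whose product binds thioredoxin and restrains glucose uptake, had 232, 189 and 188 CPM in KO and 92.2, 98.9 and 97.1 in WT (log2 fold change 1.08, SE 0.14, edgeR adjusted p = 3.2e-04). All KO libraries lay far above all WT libraries. Tnfsf4, which encodes the costimulatory ligand OX40L, had 62.2, 60.3 and 55.2 CPM in KO and 21.1, 31.2 and 24.9 in WT (1.20, SE 0.20, adjusted p = 0.001), and the centrosomal gene Cep85 had 246, 257 and 297 CPM in KO and 115, 139 and 131 in WT (1.05, SE 0.12, adjusted p = 1.5e-04). Tnfsf4 lies 23.3 Mb from Ptprc and Cd55 7.63 Mb from it, so strain and genotype cannot be told apart for them, and Tnfsf4 was higher at D0 too (1.66, adjusted p = 0.027). Srp54b, a signal recognition particle gene, rose by 0.98 (SE 0.22, adjusted p = 0.0065) and has near-identical copies, which makes its counts uncertain.

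Among genes under the median peak GC of all tested genes (71%), the largest fall after Ldha was that of Cox11, which inserts copper into cytochrome c oxidase. It had 2.05, 2.94 and 2.35 CPM in KO and 7.12, 17.1 and 13.3 in WT (log2 fold change -2.35, SE 0.35, edgeR adjusted p = 6.4e-04). Hmgn1, a nucleosome-binding protein gene, had 30.1, 35.5 and 45.2 CPM in KO and 110, 198 and 204 in WT (-2.21, SE 0.22, adjusted p = 8.4e-05). In both genes the WT libraries lay above all KO libraries, with WT replicate 1 the lowest of the WT. The mitochondrial iron-sulfur cluster gene Bola3 (-2.19, SE 0.24), the RNA-binding Sm-like protein gene Lsm2 (-2.01, SE 0.26), the polyprenol reductase gene Srd5a3 (-1.84, SE 0.28), the Rac-regulating gene Chn2 (-1.77, SE 0.25), Ifrd1 (-1.69, SE 0.24) and the ATP synthase assembly gene Atpaf1 (-1.68, SE 0.19) followed, with adjusted p of 7.0e-04 or lower. All of them stayed called with the GC offset. Among the falls of any GC content, the histone gene H2ac8 (-2.85), the tubulin folding cofactor gene Tbcc (-2.81) and the Mediator subunit gene Med30 (-2.79) were larger, with peak GC of 77%, 80% and 82%. H2ac8 shares sequence with other histone genes, so its counts are uncertain.

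p53 targets were called higher more often than all genes, with arrest, feedback and metabolic targets among those higher. Their share called lower was near that of all genes. Of 56 listed genes 49 were tested. Of these 9 (18.4%) rose, against 1.61% of all genes, and 8 (16.3%) fell, against 14.5% of all genes. The median log2 fold change was 0.17, against 0.01 over all genes tested, and with the replicate block 14 rose (28.6%, against 6.56% of all genes). Rprm, Gls2, Cpt1c, Gdf15 and Epha2 were among those under the filter, and Sco2 is not in the table. Of 19 tested members with a peak GC of at least 75%, 3 rose and 6 fell, where 0.459% and 35.8% of all such genes did. Of the 30 under 75%, 6 rose and 2 fell, where 2.28% and 3.83% of all such genes did.

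Targets that stop the cell cycle gave 3 rises (30%, against 1.61% of all genes) and 2 falls (20%, against 14.5%) among 10 tested. Of 3 with a peak GC of at least 75%, 0 rose and 1 fell, and of 7 under it, 3 rose and 1 fell. Cdkn1a, the p21 inhibitor of cyclin-dependent kinases and the best known p53 target, had 306, 290 and 244 CPM in KO and 129, 152 and 120 in WT. The lowest KO library lay well above the highest WT library (log2 fold change 1.07, SE 0.21, edgeR adjusted p = 0.0033). Psrc1, a microtubule-associated protein gene, had 10.28, 7.68 and 10.63 CPM in KO and 0.797, 0.86 and 1.16 in WT (3.33, SE 0.31, adjusted p = 6.7e-05). Btg2, an antiproliferative gene on chromosome 1, 3.99 Mb from Ptprc, had 327, 274 and 277 CPM in KO and 129, 126 and 121 in WT (1.22, SE 0.13, adjusted p = 8.8e-05), and was higher at D0 too (0.99, adjusted p = 0.019). Gadd45a, a growth arrest gene, had 1.64, 1.94 and 1.58 CPM in KO and 4.48, 4.12 and 4.06 in WT, the opposite order (-1.29, SE 0.19, adjusted p = 6.3e-04). It has a peak GC of 81%, and with the GC offset its adjusted p was 0.11. Ptprv, 2.95 Mb from Ptprc, had 7.37, 4.5 and 5.52 CPM in KO and 23, 13 and 17.9 in WT (-1.63, SE 0.26, adjusted p = 8.4e-04) and was lower at D0 as well (-2.98, adjusted p = 5.5e-04). Plk2, a stress-induced kinase gene, had 41, 43.3 and 39.2 CPM in KO and 20.9, 33.7 and 22.1 in WT, and passed with the block (0.69, SE 0.30, adjusted p = 0.16, or 0.0019 with the replicate block).

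The 4 targets that feed back on p53, all with a peak GC of at least 75%, split. Ccng1 (cyclin G1) had 245, 191 and 212 CPM in KO and 144, 106 and 117 in WT (log2 fold change 0.82, SE 0.16, edgeR adjusted p = 0.0026). Trp53inp1, a p53-induced nuclear protein gene, had 27.8, 26.1 and 30.9 CPM in KO and 20.6, 17.2 and 16.7 in WT (0.64, SE 0.19, adjusted p = 0.033). Mdm2, the ubiquitin ligase that degrades p53, had 111, 102 and 96.2 CPM in KO and 173, 150 and 139 in WT, so it was below in every KO library (-0.58, SE 0.12, adjusted p = 0.0036). Its peak GC is 77%, and with the GC offset it stood at -0.10 (adjusted p = 0.76). Ppm1d, the phosphatase gene that dampens p53 signalling, had 3.74, 4.27 and 4.25 CPM in KO and 5.38, 8.37 and 5.84 in WT (-0.68, adjusted p = 0.08, or 0.025 with the block).

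Targets of the cell death branch gave 2 rises (15.4%, against 1.61% of all genes) and 4 falls (30.8%, against 14.5%) among 13 tested. Of 6 with a peak GC of at least 75%, 1 rose and 4 fell, against 0.459% and 35.8% of all such genes. Fas, the death receptor gene, had 42, 43.6 and 37.6 CPM in KO and 27, 30.7 and 25.4 in WT (log2 fold change 0.57, SE 0.15, edgeR adjusted p = 0.019), and with the GC offset its adjusted p was 0.14. Phlda3, an Akt inhibitor gene 2.3 Mb from Ptprc, had 0.972, 1.18 and 1.67 CPM in KO and 0.149, 0.317 and 0.373 in WT (2.15, SE 0.60, adjusted p = 0.025). Its level in WT was low, in replicate 1 near the floor, so the size of this rise is uncertain. Bbc3, the gene of the BH3-only protein PUMA, had 8.7, 5.54 and 6.2 CPM in KO and 11.4, 11.2 and 10.44 in WT (-0.69, SE 0.21, adjusted p = 0.043). Ei24 (-1.27, SE 0.26, adjusted p = 0.0046), Perp (-2.08, SE 0.62, adjusted p = 0.035) and Apaf1, the apoptosome scaffold gene (-0.45, SE 0.13, adjusted p = 0.036), also fell. These 4 falls have a peak GC of 77% to 84%, and with the GC offset none of them was called. Bax, the pore-forming death effector gene, had 114, 120 and 126 CPM in KO and 116, 136 and 148 in WT, which overlap (-0.15, SE 0.15, adjusted p = 0.64, and 0.43 with the offset, adjusted p = 0.021).

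Of 6 DNA repair targets 0 were called by edgeR (1 higher at an unadjusted p under 0.05, and 1 higher with DESeq2). Ddb2, a damage recognition gene, had 18.4, 16.9 and 15.2 CPM in KO and 17.1, 14.4 and 14.9 in WT (log2 fold change 0.12, SE 0.15, edgeR adjusted p = 0.71). Among 12 metabolic targets, Dglucy, the D-glutamate cyclase gene, had 49.4, 30.3 and 41.6 CPM in KO and 8.22, 7.06 and 8.78 in WT (2.33, SE 0.19, adjusted p = 3.9e-05). Ephx1, an epoxide hydrolase gene on chromosome 1, 42.9 Mb from Ptprc, had 9.82, 8.67 and 9.68 CPM in KO and 2.49, 3.62 and 4.35 in WT (1.42, SE 0.21, adjusted p = 5.2e-04). Neither gene's groups overlapped, and both lie outside GC-rich genes. Prodh, proline dehydrogenase, had 13.9, 23.9 and 22.3 CPM in KO and 27.9, 45.5 and 40.1 in WT (-0.92, SE 0.24, adjusted p = 0.02). Lpin1, a phosphatidate phosphatase gene, had 227, 112 and 174 CPM in KO and 151, 78.1 and 128 in WT; the groups overlap, but within each replicate number KO was higher (0.52, adjusted p = 0.24, or 3.7e-04 with the replicate block).

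Several of these calls rested on single libraries. With KO replicate 2 left out the adjusted p was 0.055 for Trp53inp1, 0.16 for Bbc3, 0.084 for Fas, 0.099 for Perp, 0.077 for Apaf1 and 0.055 for Phlda3, and with WT replicate 2 left out it was 0.094 for Prodh. The number of p53 targets that fell was 5 with any 1 KO replicate left out and 4 with WT replicate 2 left out. Of the 9 rises 6 and of the 8 falls 4 kept their call whichever single library was left out. Over all genes 59 of the 221 rises and 1364 of the 1986 falls did.

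The promoters of these genes were searched for the p53 decamer, the element that p53 binds in pairs, on both strands of RefSeq promoter windows around the gene start (GRCm38.p6). Of 10880 tested genes with a window, 907 (8.34%) held a decamer, as did 12 of 40 p53 targets (30%), 2 of 8 called higher and 3 of 6 called lower. A pair with at most 13 bases between its members was in 5 tested genes (0.046%) and in 1 p53 target, Cdkn1a, which rose. Stretches with each decamer in capitals are shown for a rising arrest gene, a rising feedback gene and 2 falling targets, at chr17:29090898-29090967 (Cdkn1a, plus strand), chr11:40755432-40755501 (Ccng1, minus strand), chr10:117710905-117710974 (Mdm2, minus strand) and chr6:67037408-67037477 (Gadd45a, minus strand).
Cdkn1a: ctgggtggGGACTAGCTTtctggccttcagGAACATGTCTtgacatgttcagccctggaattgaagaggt
Ccng1: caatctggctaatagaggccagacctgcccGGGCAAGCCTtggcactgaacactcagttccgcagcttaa
Mdm2: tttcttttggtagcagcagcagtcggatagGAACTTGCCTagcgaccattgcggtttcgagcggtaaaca
Gadd45a: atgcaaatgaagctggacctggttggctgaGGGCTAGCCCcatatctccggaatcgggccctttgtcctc
Some genes that rose and some that fell carry a decamer, while 6 of the 8 that rose and 3 of the 6 that fell have none in this window. A match is a description of these letters, and binding was not measured.

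**Figure D2:**
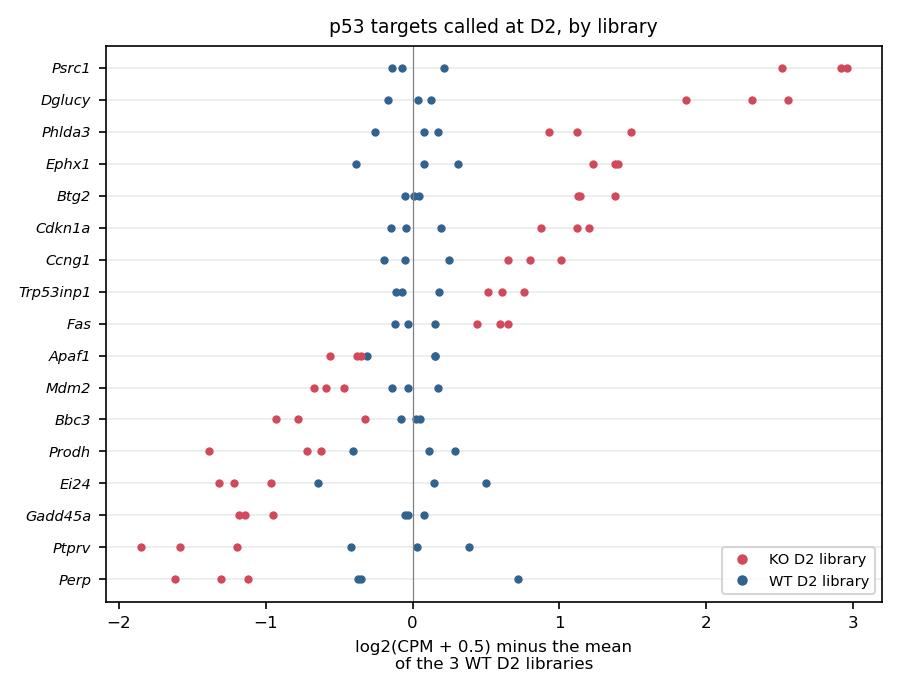
The 17 p53 targets called at D2, as log2(CPM + 0.5) minus the mean of the 3 WT D2 libraries; each red point is a KO library and each blue point a WT library. In all 17 genes the red and blue points do not overlap, from Psrc1 at the top to Perp and Ptprv at the bottom.

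MHC class Ib genes, which encode nonclassical relatives of the peptide-presenting class I molecules, included 2 of the most abundant genes that rose. Of 53 class I genes and partners listed, 38 were tested, and 4 rose, against 1.61% of all genes, and 4 fell, against 14.5% of all genes. Their median log2 fold change was 0.23, against 0.01 over all genes. Among 18 class Ib genes 3 rose and 0 fell by edgeR (0 also at an unadjusted p under 0.05 and with DESeq2), with a median of 0.28. With the replicate block 12 of the 38 rose (31.6%, against 6.56% of all genes) and 5 fell (13.2%, against 18.6%). Of 28 members with a peak GC under 75%, 4 rose and 0 fell, where 2.28% and 3.83% of all such genes did. Of 9 at or over it, 0 rose and 4 fell, where 0.459% and 35.8% did.

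H2-Q7, a Qa-2 antigen gene of the Q region (chromosome 17, 35439140 to 35443773, mm10), had 4302, 3886 and 3780 CPM in KO and 1647, 1634 and 1648 in WT. Every KO library lay far above the WT libraries, which hardly differed from each other (log2 fold change 1.28, SE 0.10, edgeR adjusted p = 3.6e-05). Its neighbour H2-Q6 (35424850 to 35430055) had 1249, 1075 and 1118 CPM in KO and 442, 414 and 440 in WT (1.41, SE 0.13, adjusted p = 7.1e-05). Both were higher at D0 too, by 0.88 (adjusted p = 0.0089) and 1.01 (adjusted p = 0.021), and the difference between the days did not pass (adjusted p = 0.16 and 0.31). Their aligned coding sequences are 95.4% identical, with 45 differences over 978 bases, so how reads were split between the pair is uncertain. A stretch of 60 bases from coding base 76, near the start of the coding part, shows the 10 positions where they differ, in capitals.
H2-Q6: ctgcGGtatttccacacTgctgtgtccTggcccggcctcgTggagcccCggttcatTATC
H2-Q7: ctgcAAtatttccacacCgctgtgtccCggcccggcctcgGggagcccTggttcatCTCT
H2-Q8 and H2-Q9, further members of the region, are not in the table.

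H2-T-ps, a pseudogene of the T region, had 43.6, 35.3 and 32.5 CPM in KO and 26.3, 20.5 and 22.1 in WT (log2 fold change 0.69, SE 0.19, edgeR adjusted p = 0.022). H2-T23, which encodes Qa-1, the ligand of the CD94 and NKG2A receptor, had 1674, 1662 and 1388 CPM in KO and 1259, 1304 and 1378 in WT (0.26, SE 0.12, adjusted p = 0.17, or 0.046 with the replicate block). The KO libraries lay above the WT libraries, the lowest of them barely. H2-M3, which presents formylated peptides, had 113, 94.9 and 88.3 CPM in KO and 92.1, 73.4 and 80.4 in WT (0.27, adjusted p = 0.24, or 0.04 with the block).

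Of the 2 classical class I genes tested, 1 fell. H2-D1 had 4199, 4060 and 4033 CPM in KO and 6110, 6112 and 6104 in WT, with both groups tight and apart (log2 fold change -0.58, SE 0.13, edgeR adjusted p = 0.0076). Its peak GC is 77%, and with the GC offset it stood at -0.09 (adjusted p = 0.69). H2-K1 had 6578, 6459 and 6529 CPM in KO and 6794, 6605 and 6942 in WT (-0.06, SE 0.10, adjusted p = 0.81, and 0.33 with the offset, adjusted p = 0.031). B2m, the light chain shared by all class I molecules, had 6147, 6160 and 6240 CPM in KO and 5553, 5163 and 5031 in WT (0.24, SE 0.19, adjusted p = 0.53, or 0.019 with the replicate block).

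Among 18 genes of peptide loading and its control, 1 rose (5.56%, against 1.61% of all genes) and 3 fell (16.7%, against 14.5%). All 3 falls are among the 4 with a peak GC of at least 75%, a class in which 35.8% of all genes fell. Pdia3, the oxidoreductase of the loading complex and of glycoprotein folding, had 720, 675 and 695 CPM in KO and 1963, 2093 and 2104 in WT, 2.95-fold apart in the fit (log2 fold change -1.56, SE 0.10, edgeR adjusted p = 1.4e-05). It stayed called with the GC offset (-0.91, adjusted p = 6.2e-04), with a peak GC of 79%. Rfx5, a subunit of the factor that binds class I and class II promoters, had 15, 16.4 and 16.3 CPM in KO and 31.1, 29.7 and 26.6 in WT (-0.87, SE 0.13, adjusted p = 7.1e-04), and its partner Rfxap had 1.23, 0.9 and 1.49 CPM in KO and 1.59, 7.74 and 6.01 in WT (-2.08, SE 0.54, adjusted p = 0.018). Neither was called with the offset (adjusted p = 0.24 and 0.075). Nlrc5, the class I transactivator gene, had 494, 435 and 480 CPM in KO and 386, 336 and 357 in WT (0.39, SE 0.11, adjusted p = 0.026, or 0.17 with the offset). The transporter gene Tap1 was at -0.29 (adjusted p = 0.29, or 0.035 with the block) and the tapasin gene Tapbp at 0.21 (adjusted p = 0.34, or 0.038 with the block). With KO replicate 1 left out the adjusted p was 0.13 for H2-T-ps, 0.13 for Nlrc5 and 0.067 for Rfxap, and 2 class I genes rose in place of 4, as with WT replicate 2 or 3 left out.

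**Figure D3:**
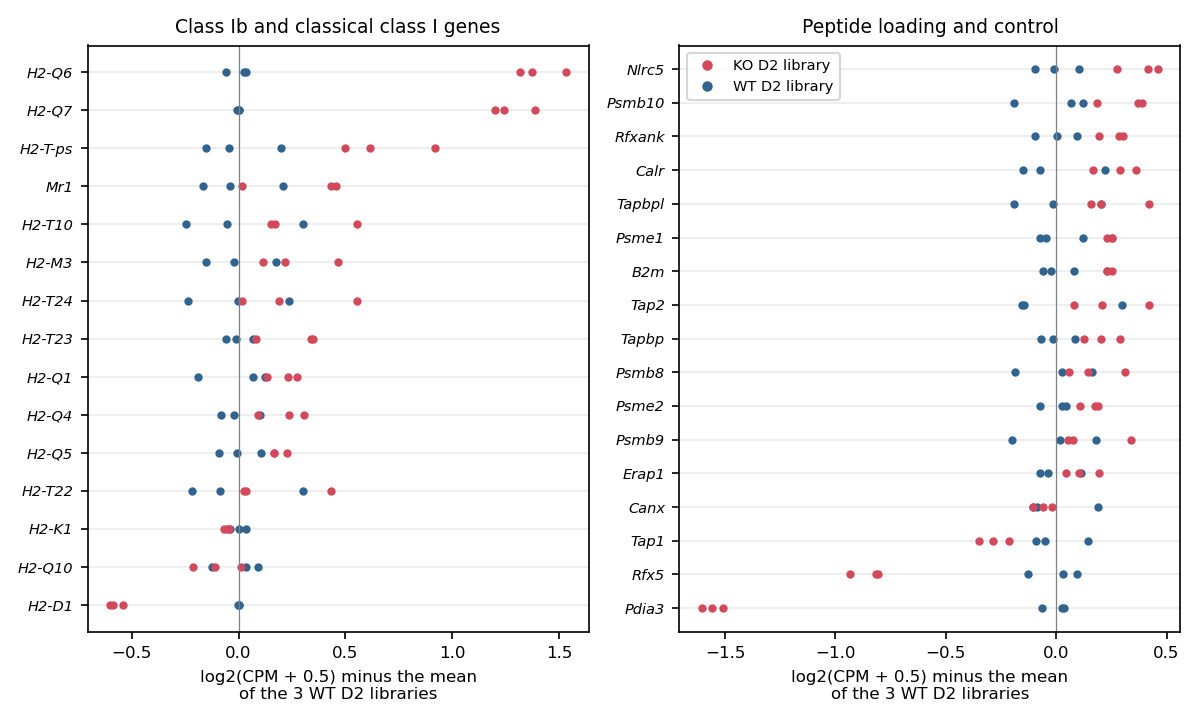
MHC class Ib and classical class I genes (15, left) and genes of peptide loading and control (17, right) with a mean of at least 5 CPM, as log2(CPM + 0.5) minus the mean of the 3 WT D2 libraries; red points are KO libraries and blue points WT libraries. H2-Q6 and H2-Q7 stand apart above the other class Ib genes, and H2-D1, Rfx5 and Pdia3 lie below.

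Genes that bring nutrients into the cell and its mitochondria were called in 1 direction. Of 61 listed 60 were tested, and 14 (23.3%) fell, against 14.5% of all genes, with a median log2 fold change of -0.13 against 0.01. By edgeR 0 rose (5 at an unadjusted p under 0.05, and 5 with DESeq2), and with the replicate block 5 rose (8.33%, against 6.56% of all genes) and 17 fell (28.3%, against 18.6%). Of 24 with a peak GC of at least 75%, 11 fell, against 35.8% of all such genes, and of 36 under 75%, 3 fell (Slc3a2, Slc1a4 and Bsg), against 3.83% of all such genes. With the GC offset 7 of the 14 kept their call, where 1116 of the 1986 falls over all genes did.

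Amino acid transporters carried 4 of the falls among 19 tested (21.1%, against 14.5% of all genes). Of 8 with a peak GC of at least 75%, 2 fell, against 35.8% of all such genes. Of 11 under it, 2 fell, against 3.83% of all such genes. Slc3a2, the heavy chain that brings several amino acid exchangers to the surface, had 179, 201 and 194 CPM in KO and 335, 458 and 425 in WT. The highest KO library lay well below the lowest WT library (log2 fold change -1.09, SE 0.13, edgeR adjusted p = 1.8e-04). Slc7a5, its light chain for leucine and other large neutral amino acids, had 18, 25.9 and 22.7 CPM in KO and 29.9, 70.9 and 53 in WT (-1.21, SE 0.28, adjusted p = 0.0096, or 0.2 with the GC offset). Slc1a5, a glutamine transporter gene, had 50, 67 and 70 CPM in KO and 106, 312 and 223 in WT (-1.78, SE 0.36, adjusted p = 0.0038). Slc1a4, a neutral amino acid transporter gene, had 1.59, 1.94 and 1.95 CPM in KO and 4.38, 5.07 and 5.8 in WT (-1.47, SE 0.39, adjusted p = 0.021). In Slc7a5 and Slc1a5, WT replicate 1 was the lowest WT library. The glutamine transporter genes Slc38a1 (-0.29, adjusted p = 0.086, or 0.017 with the block) and Slc38a2 (-0.24, adjusted p = 0.17, or 0.049 with the block) and the taurine transporter gene Slc6a6 (-0.92, adjusted p = 0.06, or 6.0e-04 with the block) passed with the replicate block.

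Transport of lactate and pyruvate gave 3 falls among 6 (50%, against 14.5% of all genes). Of 2 with a peak GC of at least 75%, 2 fell, and of 4 under it, 1 fell. Slc16a1 (MCT1), which carries lactate and pyruvate across the plasma membrane, had 34.4, 51.7 and 51.9 CPM in KO and 107, 146 and 126 in WT (log2 fold change -1.46, SE 0.18, edgeR adjusted p = 2.2e-04). Bsg, the chaperone that takes it to the surface, had 168, 195 and 218 CPM in KO and 322, 381 and 406 in WT (-0.93, SE 0.14, adjusted p = 7.4e-04). Mpc2, a subunit of the mitochondrial pyruvate carrier, had 14.9, 15.9 and 17.3 CPM in KO and 26.3, 25.6 and 31.4 in WT (-0.79, SE 0.15, adjusted p = 0.0023). All 3 genes had every KO library below every WT library and stayed called with the GC offset. The other carrier subunit gene Mpc1 had 67.5, 66.5 and 66.9 CPM in KO and 65.9, 66.3 and 62.3 in WT (0.05, SE 0.13, adjusted p = 0.89).

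Glucose transporters were not among the falls, apart from Slc2a8, a transporter of intracellular membranes (log2 fold change -1.38, SE 0.40, edgeR adjusted p = 0.031). Slc2a1 (GLUT1) had 246, 291 and 252 CPM in KO and 225, 269 and 225 in WT, which overlap (0.14, SE 0.12, adjusted p = 0.55). Slc2a3 (GLUT3) stood at 0.30 (SE 0.17, adjusted p = 0.32), and Slc2a6 at 0.63 (SE 0.22, adjusted p = 0.081, or 0.001 with the replicate block). Among iron and zinc genes the zinc transporter gene Slc39a6 had 40.4, 51.6 and 50.2 CPM in KO and 86.3, 113 and 109 in WT (-1.12, SE 0.14, adjusted p = 2.5e-04), and mitoferrin Slc25a37 fell by 0.72 on the log2 scale (SE 0.18, adjusted p = 0.016). Tfrc, the transferrin receptor gene, had 119, 161 and 110 CPM in KO and 159, 183 and 127 in WT (-0.26, SE 0.30, adjusted p = 0.68). The thiamine transporter gene Slc19a2 (-1.07, SE 0.26), the ascorbate transporter gene Slc23a2 (-0.57, SE 0.14), the lipoprotein receptor gene Scarb1 (-0.74, SE 0.20) and the phosphate transporter gene Slc20a2 (-0.86, SE 0.26) fell with adjusted p between 0.011 and 0.04.

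Only 6 of the 14 falls kept their call whichever library was left out, Slc3a2, Slc1a5, Slc16a1, Bsg, Mpc2 and Slc39a6. Over all genes 1364 of the 1986 falls did. With WT replicate 2 left out the adjusted p of Slc7a5, Slc1a4 and Slc19a2 was 0.054, that of Scarb1 0.052, of Slc25a37 0.065, of Slc23a2 0.067, of Slc2a8 0.15 and of Slc20a2 0.16, so 6 falls were left. With KO replicate 1 left out there were 7 falls, with WT replicate 3 left out 9, and with WT replicate 1 left out 15 and 2 rises.

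Most cell cycle genes were not called (114 of 146), and the falls were in some G1 regulators and in single members of replication and mitosis complexes. Of 147 listed 146 were tested, of which 29 (19.9%) fell, against 14.5% of all genes, and 3 (2.05%) rose, against 1.61%. The median log2 fold change was -0.16. Of 41 members with a peak GC of at least 75%, 21 fell and 0 rose, against 35.8% and 0.459% of all such genes. Of 105 under 75%, 8 (Cdk6, Tfdp1, Cdkn2c, Orc2, Rrm2, Ccna2, Cdc20 and Knl1) fell and 3 rose, against 3.83% and 2.28% of all such genes. With the replicate block 35 fell (24%, against 18.6% of all genes) and 6 rose (4.11%, against 6.56%), so the share of rises was then below that of all genes. With the GC offset 17 of the 29 falls kept their call, all 8 replication genes among them. Over all genes 1116 of the 1986 falls kept theirs.

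Genes of the G1 phase had 9 falls among 24 tested (37.5%, against 14.5% of all genes). By edgeR 0 rose (0 also at an unadjusted p under 0.05 and with DESeq2). Among 16 with a peak GC of at least 75%, 7 fell, against 35.8% of all such genes. Among 8 under 75%, 2 fell, against 3.83% of all such genes. E2f4, which encodes an E2F factor that represses in resting cells, had 65.2, 71.8 and 75 CPM in KO and 139, 203 and 182 in WT (log2 fold change -1.30, SE 0.18, edgeR adjusted p = 3.4e-04). Its dimer partner gene Tfdp1, outside GC-rich genes, had 169, 167 and 181 CPM in KO and 255, 269 and 254 in WT (-0.59, SE 0.10, adjusted p = 0.0013). Ccne1 (cyclin E1), which drives entry into S phase, had 8.8, 8.2 and 8.73 CPM in KO and 17.7, 30.8 and 26.1 in WT (-1.54, SE 0.24, adjusted p = 7.2e-04). In these 3 genes the KO libraries lay within a narrow band below all WT libraries. The phosphatase gene Cdc25a (-1.04, SE 0.20), the kinase gene Cdk6 (-0.63, SE 0.14), the cyclin D3 gene Ccnd3 (-1.04, SE 0.25), the pocket protein gene Rbl1 (-0.73, SE 0.14), E2f3 (-0.61, SE 0.17) and E2f6 (-1.28, SE 0.33) also fell, with adjusted p between 0.0029 and 0.023. Ccnd2 (cyclin D2) had 1833, 2374 and 1912 CPM in KO and 1367, 1937 and 1790 in WT (0.26, adjusted p = 0.57, or 0.044 with the replicate block), and Myc had 976, 1405 and 1130 CPM in KO and 1237, 1580 and 1275 in WT (-0.22, adjusted p = 0.41, or 0.032 with the block). Both overlap between the groups.

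Of 11 inhibitor genes tested, Cdkn1a and Btg2 rose, as given among the p53 targets, and 3 fell (27.3%, against 14.5% of all genes). Of 5 with a peak GC of at least 75%, 2 fell, against 35.8% of all such genes. Of 6 under it, 1 fell and 2 rose, against 3.83% and 2.28% of all such genes. Cdkn2c (p18), an inhibitor of CDK4 and CDK6, had 9.62, 8.58 and 9.32 CPM in KO and 13.2, 29.3 and 24.9 in WT (log2 fold change -1.29, SE 0.24, edgeR adjusted p = 0.0024). The antiproliferative genes Btg1 (-1.08, SE 0.31, adjusted p = 0.03) and Tob1 (-1.23, SE 0.38, adjusted p = 0.047, or 0.051 with the replicate block) fell as well.

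In DNA replication 8 of 50 fell (16%, against 14.5% of all genes), while 42 were not called and the median was -0.09. By edgeR 0 rose (0 also at an unadjusted p under 0.05 and with DESeq2). Of 11 with a peak GC of at least 75%, 6 fell, against 35.8% of all such genes. Of 39 under 75%, 2 fell, against 3.83% of all such genes. Within the MCM helicase, Mcm6 had 297, 272 and 347 CPM in KO and 791, 843 and 916 in WT (log2 fold change -1.48, SE 0.16, edgeR adjusted p = 1.2e-04), whereas Mcm2 had 690, 587 and 741 CPM in KO and 795, 609 and 733 in WT (-0.08, SE 0.15, adjusted p = 0.82). The remaining subunits Mcm3, Mcm4, Mcm5 and Mcm7 stood between -0.13 and -0.07. Mcm6 has a peak GC of 78% and Mcm2 of 71%. Dbf4, the activator of the origin-firing kinase CDC7, had 19.4, 18.8 and 20.5 CPM in KO and 52.3, 69.8 and 62.3 in WT (-1.65, SE 0.15, adjusted p = 6.5e-05). The clamp loader gene Rfc5 had 101, 91.8 and 109 CPM in KO and 216, 193 and 213 in WT (-1.04, SE 0.12, adjusted p = 1.5e-04), and the chromatin assembly gene Chaf1a had 22.4, 20 and 20.4 CPM in KO and 36.6, 55.9 and 50.2 in WT (-1.19, SE 0.19, adjusted p = 9.7e-04). Below the GC threshold, the origin recognition gene Orc2 had 44.8, 52.7 and 44.1 CPM in KO and 79.2, 78.5 and 71 in WT (-0.69, SE 0.13, adjusted p = 0.0021) and the ribonucleotide reductase gene Rrm2 fell by 0.44 on the log2 scale (SE 0.13, adjusted p = 0.04). Groups did not overlap in any of these called genes.

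Of 61 mitosis genes 9 (14.8%) fell and 1 (1.64%, Psrc1) rose, against 14.5% and 1.61% of all genes, with a median of -0.18. Of 9 with a peak GC of at least 75%, 6 fell, against 35.8% of all such genes. Of 52 under 75%, 3 fell and 1 rose, against 3.83% and 2.28% of all such genes. Ccna2 (cyclin A2) had 30.6, 28 and 33.7 CPM in KO and 106, 176 and 153 in WT, 4.71-fold apart in the fit (log2 fold change -2.24, SE 0.26, edgeR adjusted p = 1.5e-04), with a peak GC of 72.5%. Cdc20, an activator of the anaphase-promoting complex, had 42.4, 38.1 and 44.8 CPM in KO and 127, 89 and 109 in WT (-1.38, SE 0.21, adjusted p = 7.4e-04). Cdk1, the kinase that cyclin A2 and the B cyclins activate, had 177, 152 and 176 CPM in KO and 204, 133 and 169 in WT, which overlap (SE 0.15, adjusted p = 1). The transcription factor genes Mybl2 (-1.0, SE 0.18) and Foxm1 (-0.89, SE 0.21), which drive mitotic genes, the spindle gene Aspm (-0.88, SE 0.20), the cytokinesis gene Racgap1 (-0.70, SE 0.15), the condensin gene Smc4 (-0.71, SE 0.22), the kinetochore gene Knl1 (-0.70, SE 0.19) and the cyclin B2 gene Ccnb2 (-0.56, SE 0.17) fell too, with adjusted p between 0.0021 and 0.046. Mki67, the proliferation marker gene, had 342, 299 and 329 CPM in KO and 484, 366 and 385 in WT, with KO below WT in every library but not past the test (-0.35, SE 0.15, adjusted p = 0.17).

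Of the 29 falls 19 kept their call whichever library was left out, where 1364 of the 1986 falls over all genes did. With WT replicate 3 left out the adjusted p was 0.059 for Ccnd3, 0.1 for E2f3, 0.063 for E2f6, 0.058 for Btg1, 0.091 for Tob1, 0.077 for Rrm2, 0.088 for Ccnb2, 0.053 for Foxm1 and 0.073 for Smc4, and that of Knl1 was 0.057 with WT replicate 1 left out.

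**Figure D4:**
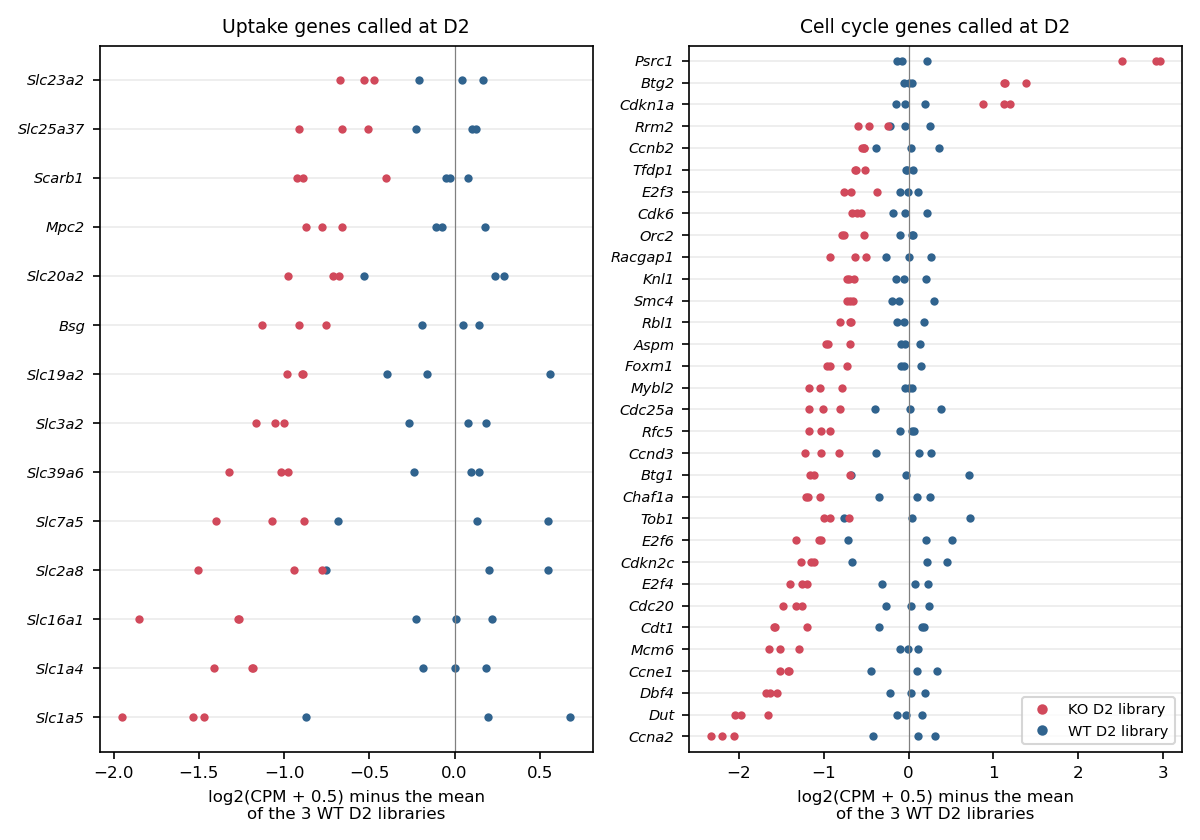
Uptake genes (14, left) and cell cycle genes (32, right) called at D2, as log2(CPM + 0.5) minus the mean of the 3 WT D2 libraries; red points are KO libraries and blue points WT libraries. Apart from Tob1 the red points do not overlap the blue ones.

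Around the missing enzyme, 19 glycolysis genes were tested. Of these 2 fell, against 14.5% of all genes, and 1 rose (5.26%, against 1.61%). Most of the 19 lie outside GC-rich genes. Of 3 with a peak GC of at least 75%, 1 fell, against 35.8% of all such genes. Of 16 under 75%, 1 fell and 1 rose, against 3.83% and 2.28% of all such genes. Pgam1, phosphoglycerate mutase, had 354, 435 and 431 CPM in KO and 557, 559 and 572 in WT (log2 fold change -0.47, SE 0.11, edgeR adjusted p = 0.0083, or 0.13 with the GC offset). Pgp, a phosphatase that clears by-products of glycolysis, had 0.614, 0.663 and 0.86 CPM in KO and 3.54, 16.9 and 11.8 in WT (-3.90, SE 0.65, adjusted p = 0.0011), with a peak GC of 86%. The hexokinase gene Hk3 had 17.8, 14.2 and 17.6 CPM in KO and 9.81, 10.09 and 10.9 in WT (0.69, SE 0.17, adjusted p = 0.013, or 0.065 with KO replicate 3 left out). The abundant enzymes were not called: Gapdh had 3330, 3082 and 3421 CPM in KO and 3573, 2935 and 3314 in WT (adjusted p = 1), and Pkm, the pyruvate kinase gene, had 2129, 2079 and 1941 CPM in KO and 2244, 2112 and 1985 in WT (-0.04, SE 0.15, adjusted p = 0.91).

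Of 22 genes of the pyruvate dehydrogenase complex and the NADH shuttles, 6 fell (27.3%, against 14.5% of all genes) and 0 rose by edgeR (0 also at an unadjusted p under 0.05 and with DESeq2). All 6 are among the 9 with a peak GC of at least 75%, a class in which 35.8% of all genes fell. Dlat, the acetyltransferase subunit of the complex, had 30.7, 44.1 and 43.2 CPM in KO and 95.8, 123 and 123 in WT (log2 fold change -1.53, SE 0.16, edgeR adjusted p = 8.7e-05). Of the 4 kinase genes that switch the complex off, 3 fell and Pdk4 did not pass (-0.45, adjusted p = 0.8). Pdk3 had 31.9, 34.9 and 36.5 CPM in KO and 81.6, 99.7 and 99.2 in WT (-1.44, SE 0.14, adjusted p = 7.8e-05), Pdk1 had 6.09, 4.98 and 3.3 CPM in KO and 7.92, 14.8 and 12.3 in WT (-1.29, SE 0.28, adjusted p = 0.0061, or 0.17 with the GC offset), and Pdk2 had 1.18, 0.853 and 0.905 CPM in KO and 1.49, 2.44 and 1.62 in WT (-0.92, SE 0.26, adjusted p = 0.026, or 0.093 with KO replicate 3 left out). The malic enzyme gene Me2 (-1.18, SE 0.12, adjusted p = 8.7e-05) and the oxoglutarate carrier gene Slc25a11 of the malate-aspartate shuttle (-0.89, SE 0.11, adjusted p = 1.8e-04) were lower, and both stayed called with the offset, as did Dlat and Pdk3.

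**Figure D5:**
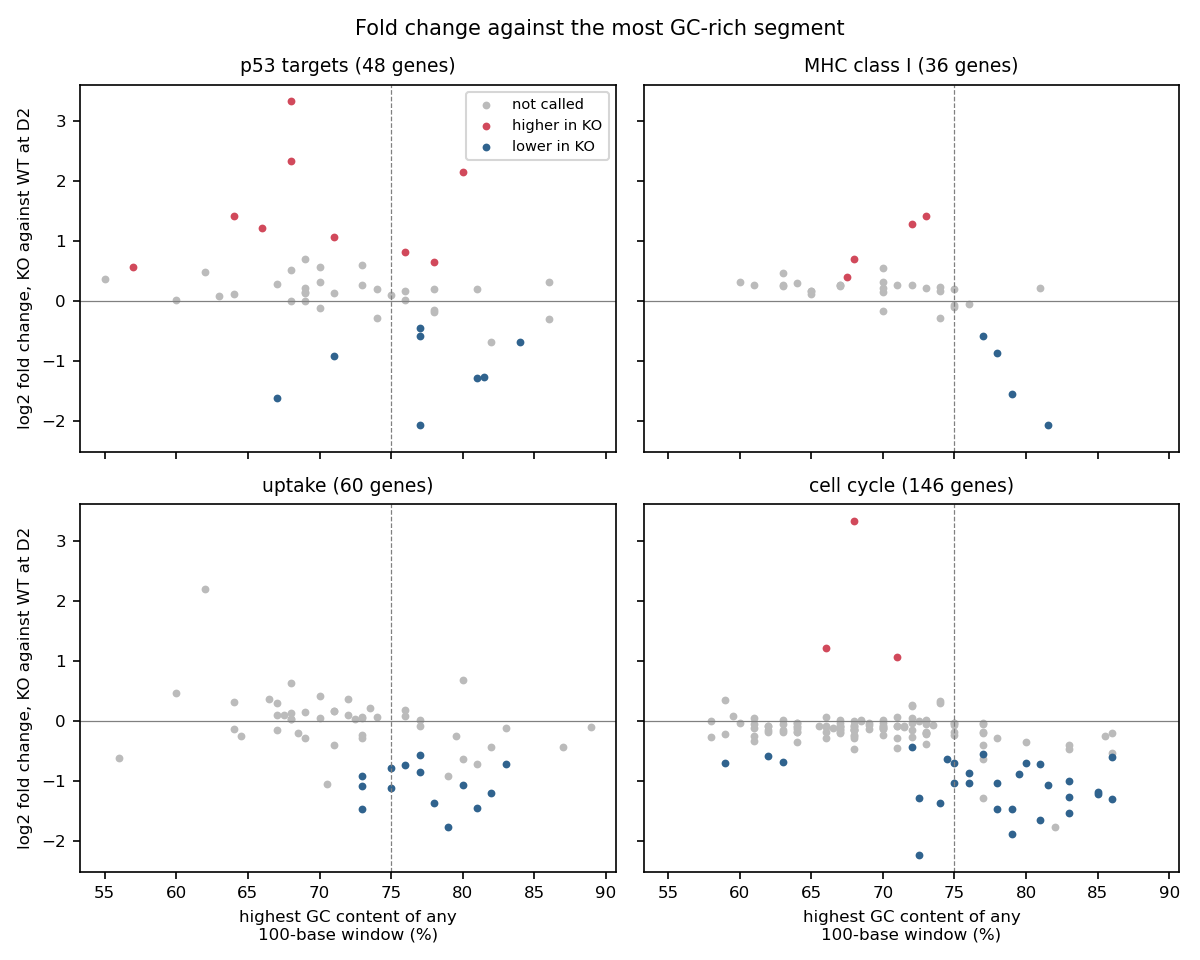
Log2 fold change of KO against WT at D2 against peak GC for 48 p53 targets, 36 MHC class I genes, 60 uptake genes and 146 cell cycle genes; red points were called higher, blue points lower and grey points not called, and the dashed line marks 75%. Eda2r and Cd1d2, at 0 counts in a D2 group, are not drawn, and blue points lie mostly to the right of the line.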

How the data were processed

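RNA from sorted NK cells of individual mice was amplified with a low-input kit (SMART-Seq v4), per the labels' protocols. The authors deposited a table of whole counts for 24421 Entrez gene IDs. The submitters' processing notes list bcl2fastq 2.20.0.422, Trimmomatic 0.36, Salmon 0.13.1 (another entry reads 13.1), DESeq2 1.22.2 and build mm10, without their roles. The counts may therefore be rounded estimates, which can split reads between near-identical genes. Symbols and positions came from RefSeq (GRCm38.p6), where 24387 IDs were found. The remaining 34 held at most 0.0244% of a library. Transcript GC came from GENCODE transcripts of mm10, for 12817 of the 13711 tested genes, as the highest GC of any 100-base window, taken as the median over a gene's transcripts.

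Testing used R 4.3.3 and edgeR 4.0.16, with TMM scaling, filterByExpr and robust quasi-likelihood tests on all 11 libraries with 4 group means and 7 residual degrees of freedom. A gene was called when its p, adjusted by Benjamini-Hochberg over all tested genes, was under 0.05. CPM are TMM-scaled, except those of marker genes and of floors, which use library totals. SEs derive from the F statistic. Each sample is an individual mouse, per the labels' protocols. Floors cover counting error only, whereas the SEs also include the spread between libraries. The procedure was tested on simulated counts with equal numbers of raised and lowered genes and the same dispersion for all genes. That simulation held no GC relation and no pairing by number, so it does not bear on either.

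Same-numbered KO and WT libraries at D2 had deviations from their group means that correlated at 0.217, 0.198 and 0.114 across genes, different-numbered ones at -0.193 to 0.00511. Deviations cancel within a group, so this contrast is partly built in. Whether the numbers pair the samples is not stated, and the main fit does not use them. A fit with the number as a block (3 residual degrees of freedom) is given where it changes a call or moves a count by over 1.5 times.

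The 5 gene lists, the 10 marker lists, the GC measure and the rule for named genes were chosen with earlier results of these data known, and no list was tested as a set. The rule took up to 4 called members per list role and direction. It also took the 15 largest rises, the 15 largest falls and the 15 largest falls under the median peak GC, among called genes that averaged 5 CPM or more over the D2 libraries, had no overlap between groups, more than 3 counts in each group and no provisional name. The text names some of these and further list members, chosen after their values were seen. Other settings were RLE scaling, DESeq2 1.42.0, no filter, a filter of 5 mean CPM, only the D2 libraries, the block, a GC offset (spline with 5 degrees of freedom per library), the block with that offset, and leaving out each of the 11 libraries in turn. A fit of only the genes with a peak GC under 75%, with and without the block, was chosen after the data were examined.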

Additional observations from a re-analysis of the deposited data

Results flagged for a closer look

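The genotype difference at D2 was tested against that at D0 in the same fit (edgeR quasi-likelihood test of the difference, Benjamini-Hochberg adjusted), which called 801 of 13711 genes (5.84%), 17 higher (0.124%) and 784 lower (5.72%). Of the 120 genes that the text names from the fit, 46 passed, while list members not named were left out of this tally. Each value given is the genotype's log2 fold change at D2 minus that at D0. The count over all genes rests on single libraries: the genes called lower were 1404 and those called higher 32 without WT D2 replicate 1, and 115 and 4 without KO D2 replicate 2. Both counts were lower still without WT D0 replicate 2, a fit that leaves WT D0 without a spread of its own. The differences of the named genes thus lean on that small group too. All D0 libraries are also labelled day 2, so what the 2 titles contrast is not settled.

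Ldha differed by -2.11 (adjusted p = 2.2e-04), the smallest p among them. Positive differences were those of Psrc1 (2.25), Dglucy (1.61), Cd55 (1.66), Ephx1 (1.10) and Txnip (0.99), with adjusted p between 0.0093 and 0.045. Among p53 and class I genes, negative differences were those of Gadd45a (-1.38), Pdia3 (-1.42) and Rfx5 (-0.89). Uptake genes that passed were Slc3a2 (-1.26), Slc7a5 (-1.74), Slc16a1 (-1.24), Bsg (-1.0) and Slc39a6 (-1.19). Cell cycle genes that passed were E2f4 (-1.44), Tfdp1 (-0.77), Cdc25a (-1.22), Cdk6 (-0.90), Dut (-2.10), Mcm6 (-1.46), Dbf4 (-1.51), Rfc5 (-1.10), Cdt1 (-1.35), Chaf1a (-1.39), Ccna2 (-2.30), Cdc20 (-1.71), Mybl2 (-1.42), Foxm1 (-1.42) and Aspm (-1.32). Around pyruvate, Dlat (-1.45), Pdk3 (-1.32), Me2 (-1.08), Slc25a11 (-0.91), Pgam1 (-0.71) and Pgp (-4.11) passed. Among the largest falls, those of Cox11 (-1.97), Hmgn1 (-1.95), Bola3 (-2.17), Lsm2 (-2.04), Srd5a3 (-1.80), Chn2 (-1.71), Ifrd1 (-1.74), Atpaf1 (-1.58), H2ac8 (-2.95), Tbcc (-2.78) and Med30 (-2.50) passed. The adjusted p of these negative differences ran from 0.0027 to 0.04. H2-Q6, H2-Q7, Cdkn1a and Btg2 were not among the genes that passed (adjusted p = 0.31, 0.16, 0.99 and 0.63), which does not show that their difference was the same at both.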

How the results depend on the processing

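The direction of the 120 named genes was kept by the settings tried wherever a call was involved, except for 4 genes with the GC offset. The fall of Apaf1 stood at 0.03 (adjusted p = 0.93) with it and 0.05 with it and the replicate block, and that of Racgap1 at 0.01 with both. The uncalled Bax (0.43) and H2-K1 (0.33) were called higher with the offset, alone and with the block. The cause was not tested. Under the replicate block 14 of the 120 named genes passed that had not, Tob1 no longer did, and the call of no other named gene changed. A fit without a WT D0 library takes that group's spread from the others.

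All genes higher, 221, were 440 with RLE scaling, 697 with DESeq2, 490 with only the D2 libraries, 900 with the block, 710 with the GC offset, 1573 with both, and 69 or, with the block, 407 among genes with a peak GC under 75%, fitted alone. The 1986 lower were 1170 with the offset and 286 or 539 in those last fits. The median log2 fold change of all genes was 0.10 with RLE, 0.02 with the GC offset and 0.01 as reported. Of the p53 targets, 14 were higher with the block, 14 with the offset, 21 with both and 5 in the fit under 75%, and 2, 4 and 2 were lower with the offset, with both and in that fit (3 with the block). MHC class I genes higher were 7 with DESeq2, 7 with the D2 libraries alone, 12 with the block, 11 with block and offset and 2 under 75%, and those lower 1 with the offset, 2 with both, and 0 or, with the block, 1 under 75%. Uptake genes higher were 4 with RLE, 5 with DESeq2, 2 with the filter of 5 CPM, 1 with the D2 libraries alone, 5 with the block, 4 with the offset, 9 with both and 3 under 75% with the block, and those lower 7 with the offset and 3 or 5 under 75%. Cell cycle genes higher were 6 with the block, 5 with the offset and 8 with both, and those lower 19 with the offset and 8 or 18 under 75%.

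GC-rich genes higher, 21, were 33 with RLE, 57 with DESeq2, 81 with the block, 542 with the offset and 1025 with both, and those lower 812 with the offset. Genes under 75% higher, 188, were 392 with RLE, 617 with DESeq2, 448 with the D2 libraries alone, 799 with the block, 497 with block and offset, and 69 or 407 fitted alone. Those lower, 316, were 477 with the block, 588 with both and 538 fitted alone with the block. For the difference between the days, 17 higher were 92 with DESeq2, 619 with the block, 1028 with block and offset, and 5 or 402 under 75%. The 784 lower were 475 with RLE, 1997 with the block, 118 with the offset, and 43 or 384 under 75%.

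Leaving out each library gave 91 to 253 genes higher and 1483 to 2176 lower, 6 to 11 and 4 to 9 p53 targets, 2 to 5 and 3 to 4 class I genes, 0 to 2 and 6 to 15 uptake genes, and 3 to 3 and 20 to 30 cell cycle genes. GC-rich genes gave 7 to 24 higher and 1252 to 1810 lower, genes under 75% 74 to 219 and 213 to 355, and the difference between the days 0 to 87 and 4 to 1404.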
